A study of Drosophila melanogaster with 2 samples.

Results

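The regions described here are 1478 weaker peaks away from promoters that both replicates of a chromatin immunoprecipitation sequencing (ChIP-seq) experiment on cato held. They come from deposited lists of peaks and background, and every list entry is called a peak here. Background in both libraries cannot be told apart from binding. The 1478 were selected on the deposited signal values and positions. From the 30000 peaks of replicate 3, the 10000 highest by signal value were kept, and 5626 of these shared 1 bp or more with a peak among the 10000 highest of replicate 1. Of the 5626, 3179 were dropped because their summit was within 1000 bp of a summit in the list thresholded by the irreproducible discovery rate (IDR), which keeps peaks whose ranks are reproducible between replicates. Another 954 were within 500 bp of a transcription start site and 15 lay in coding exons. The 1478 that remained rest on 1404 distinct peaks of replicate 1. Signal value, rank and overlap between the replicates are therefore given as a description, and the sequence at the summits was not part of the selection. The distance and exon rules also limit which locations remain and which genes can be nearest, so locations are set beside the sequence that the same rules leave. The flanks used for sequence, 1000 bp from each summit, faced no such rules. They can lie in coding exons or near start sites, and the part of this in comparisons with flanks was not tested.

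Whole embryos of 0 to 16 h, of both sexes pooled, came from a transgenic Drosophila line with a stable cato fusion that carries GFP (eGFP in the description) at its C-terminus. Anti-GFP antibody was used for the precipitation, from chromatin sonicated to 200 to 800 bp. The only group held 2 biological replicates, numbered 1 and 3, and no control library was analysed here. In whole embryos, strong binding in few cells and weak binding in many cells cannot be told apart. The weaker shared peaks were set beside 1246 IDR peaks that also lay away from promoters and coding exons, and beside 2596 peaks of replicate 3 that passed the same rank and location rules but overlapped none of the 10000 highest of replicate 1 (unshared peaks). The unshared peaks were of lower rank in replicate 3, with a median of 7249.5 against 5246 for the weaker shared peaks.

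Cato is a basic helix-loop-helix transcription factor of the atonal family, expressed in developing sensory neurons of the embryo. Proteins of this class form dimers and bind the E-box, CANNTG, whose central bases vary with the protein pair. Enhancers, the regulatory regions away from promoters, often lie in introns or between genes.

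Of the sequences around summits, 4 are shown first because they belong to the regions of highest signal value in replicate 3 with an intronic or intergenic summit, with any E-box in capitals. The region second by signal value, at drn, was left out because its summit lies in a non-coding exon. Each is the plus strand of the summit base and 50 bp to either side, from the RefSeq copy of dm6, and each region is named after the protein-coding gene whose start site was closest.
Spn, chr3L:2531754-2531854: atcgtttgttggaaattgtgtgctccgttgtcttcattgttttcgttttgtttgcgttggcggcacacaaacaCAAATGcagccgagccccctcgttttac
MCU, chr3L:6553050-6553150: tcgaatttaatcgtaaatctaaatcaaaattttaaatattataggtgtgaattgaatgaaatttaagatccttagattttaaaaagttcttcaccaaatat
CG9837, chr3R:8810575-8810675: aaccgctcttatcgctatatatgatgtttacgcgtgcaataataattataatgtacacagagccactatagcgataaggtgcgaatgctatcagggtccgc
Atg17, chr3R:5672701-5672801: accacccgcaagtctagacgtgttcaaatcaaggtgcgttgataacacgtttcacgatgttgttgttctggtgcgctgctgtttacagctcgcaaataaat
Of these 4, the window at Spn, which encodes the phosphatase-binding scaffold Spinophilin, held an E-box, of the CAAATG class. The windows at MCU, the mitochondrial calcium uniporter gene, at CG9837 and at the autophagy gene Atg17 held none.

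The next 5 windows are shown because they hold CACTGAGA or its reverse complement TCTCAGTG, in capitals. Among 8-base sequences in 30 or more windows of weaker shared peaks, it had the highest ratio of windows at summits to windows in flanks. The 5 are the regions of highest signal value in replicate 3 among those that hold it.
cv-c, chr3R:14473764-14473864: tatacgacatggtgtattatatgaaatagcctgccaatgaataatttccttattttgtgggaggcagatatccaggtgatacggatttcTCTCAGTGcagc
gukh, chr3R:18995904-18996004: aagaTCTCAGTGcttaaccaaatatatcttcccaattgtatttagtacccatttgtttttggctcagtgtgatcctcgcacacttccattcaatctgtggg
Dr, chr3R:29567074-29567174: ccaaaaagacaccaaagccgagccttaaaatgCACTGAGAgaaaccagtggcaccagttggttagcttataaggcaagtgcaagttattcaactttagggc
CG15282, chr2L:14701678-14701778: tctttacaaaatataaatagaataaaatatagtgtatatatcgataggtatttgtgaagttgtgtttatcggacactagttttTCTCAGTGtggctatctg
S, chr2L:1070557-1070657: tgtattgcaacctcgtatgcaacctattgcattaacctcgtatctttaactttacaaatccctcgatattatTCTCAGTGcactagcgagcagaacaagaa
In 4 of these windows the sequence was TCTCAGTG on the plus strand, and at Dr it was CACTGAGA.

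All weaker shared peaks lay among the 10000 highest of each list of 30000, as the rule asks. Their deposited signal value ran from 17.3 to 55.8 in replicate 3, with a median of 24.1, and from 11.7 to 41.8 in replicate 1, with a median of 15.8. The values are on the scale of the authors' peak caller and cannot be compared between the replicates. By rank they ran from 1321 to 9997 in replicate 3 (median 5246) and from 927 to 9999 in replicate 1 (median 4882.5). A region's value in one replicate said little of its value in the other, with a Spearman correlation of 0.20 over the 1478 regions, a description only because both lists selected the regions. Both ranks were 5000 or better at 408 regions, 27.6%, and both were over 5000 at 444, 30.04%.

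**Figure D1:**
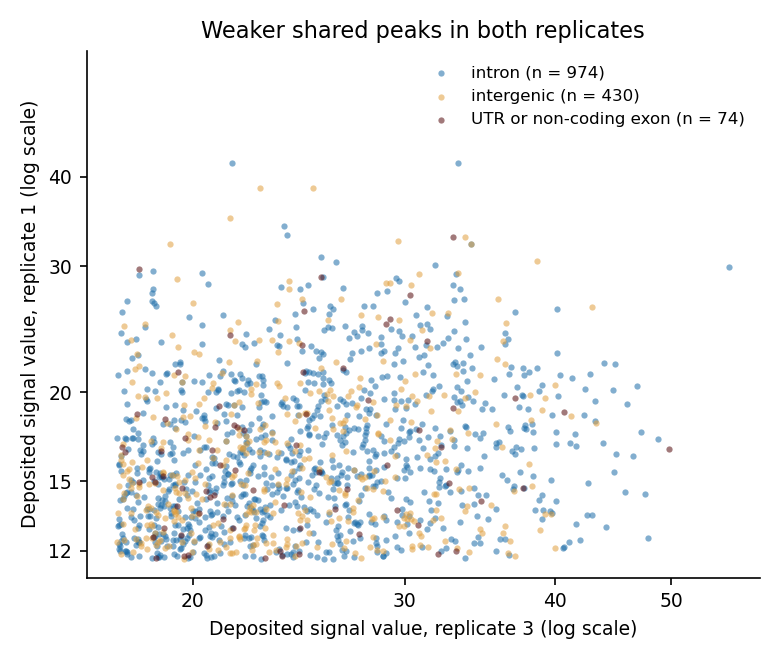
Deposited signal value of each of the 1478 weaker shared peaks in replicate 3 (horizontal, log scale) and replicate 1 (vertical, log scale), coloured by location of the summit. The points form a broad cloud (Spearman correlation 0.20), with the region at Spn farthest right at 55.8 and the region at Antp highest at 41.8.

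Overlap between the replicates depended on rank. Of the peaks of replicate 3, 4074 passed the location rules, shared or not. Among these, the 10000 highest of replicate 1 also held 77.8% of the 18 ranked 1 to 2000 (95% Wilson interval 54.8 to 91.0). They held 61.4% of the 638 ranked 2001 to 4000 and 47.5% of those ranked 4001 to 6000. They held 28.5% of those ranked 6001 to 8000 and 20.3% of those ranked 8001 to 10000 (18.1 to 22.6). Of the 2596 unshared peaks, 39.2% overlapped some peak in the full list of replicate 1. The regions just inside the rank limit of replicate 3 had signal values of 17.31 to 17.34, and the nearest ones outside had 17.28 to 17.30. At the distance limits, the nearest kept summits lay 1005, 1008 and 1016 bp from an IDR summit and 501, 503 and 504 bp from a start site, and the nearest dropped ones 993, 997 and 998 bp and 494, 496 and 499 bp.

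**Figure D2:**
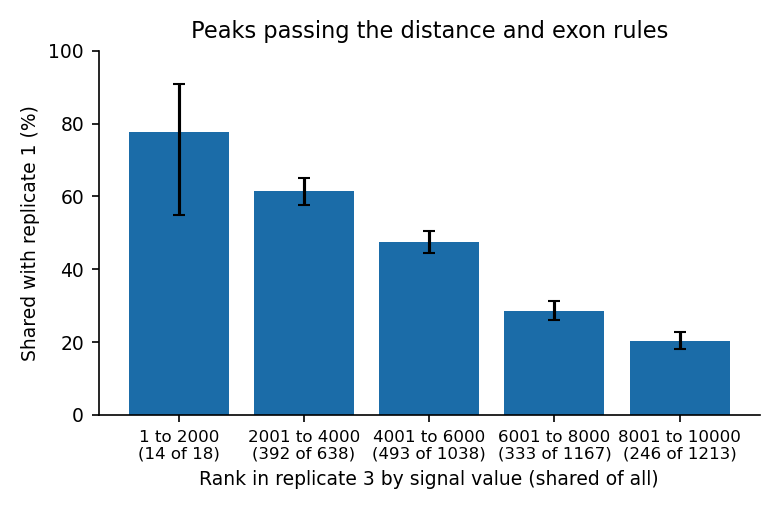
Share of peaks of replicate 3 that overlapped one of the 10000 highest of replicate 1, in bins of rank in replicate 3, among the 4074 that passed the distance and exon rules. Bars are percentages with 95% Wilson intervals, and they step down from 77.8% to 20.3%.

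The position of the summit was less exact than at IDR peaks. The summits of the replicates were 62 bp apart at the median weaker shared peak, against 30 bp at IDR peaks away from promoters. They lay within 50 bp of each other at 44.6% of weaker shared peaks (95% Wilson interval 42.1 to 47.1) and at 69.4% of those IDR peaks (66.8 to 71.9). Both sets were selected on the replicates, so this was not tested. The pooled list of 30000 peaks, which the files describe only as pooled, overlapped 60.4% of the weaker shared peaks, 95.6% of the IDR peaks away from promoters and 39.5% of the unshared peaks. Within the 10000 highest of the pooled list these shares were 31.3%, 87.5% and 17.0%. Without the demand that the other replicate hold the peak, the share in the pooled list was 47.1% for replicate 3 alone and 41.1% for replicate 1 alone.

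Single regions differed in how far the replicates ranked them alike. The region of highest signal value in replicate 3, in an intron of Spn on chromosome 3L (2531599 to 2532008), had 55.8 in replicate 3 (rank 1321) and 29.9 in replicate 1 (rank 1694). It also had the best mean rank of all 1478. The region in an intron of the Hox gene Antp on 3R (6912271 to 6912680) had 33.2 in replicate 3 (rank 3135) and the highest value of all in replicate 1, 41.8 (rank 927). The intergenic region 10426 bp from the start site of 18w, a Toll-family receptor gene, also ranked better in replicate 1 (38.7, rank 2479, in replicate 3 and 30.5, rank 1630, in replicate 1). The other 2 with the best mean rank were the region at CheA84a (43.0 in replicate 3 and 26.3 in replicate 1) and one in an intron of betaTub97EF, a beta-tubulin gene (40.1 and 26.1).

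The 10 regions of highest value in replicate 3 all ranked lower in replicate 1, and they were picked on replicate 3. The one in an intron of CG9837 had 47.8 in replicate 3 (rank 1767) and 12.5 in replicate 1 (rank 8460). The one in an intron of chn, which encodes the zinc finger protein Charlatan, a regulator of achaete and scute, had 47.2 in replicate 3 (rank 1807) and 17.6 in replicate 1 (rank 3975). The remaining regions among the 10 highest, at drn, MCU, Atg17, CG15461, the Arf exchange factor gene Efa6, the HMG-box gene Dsp1 and CG42238, had 45.7 to 49.8 in replicate 3 and 14.4 to 20.4 in replicate 1. Of these 10 regions 9 were intronic, and the one nearest to drn lay in an exon of the non-coding gene lncRNA:CR43301. The nearest start site therefore need not belong to the gene that contains the summit.

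The weaker shared peaks lay mostly in introns, and first introns above all. Of the 1478 summits, 974 were intronic, 65.9% (95% Wilson interval 63.4 to 68.3), 430 were intergenic, 29.1% (26.8 to 31.5), and 74 were in UTRs or exons of non-coding genes, 5.01% (4.01 to 6.24). Of the 94.3 Mb of sequence that the location rules left eligible, 54.2% was intron, 37.7% intergenic and 8.10% UTR or non-coding exon. Among intronic summits 68.1% were in a first intron (65.1 to 70.9), and first introns made up 42.5% of eligible intron sequence. The intervals treat summits as independent and cover counting error only. With the 5000 highest of each replicate the intronic share was 72.3%.

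By location the weaker shared peaks differed from the lower-ranked unshared peaks in 1 class, and the part of rank in this was not tested. UTRs and non-coding exons held 5.01% of them and 9.09% of unshared peaks (Fisher's exact test, adjusted p = 1.16e-05, Benjamini-Hochberg over 8 comparisons added after seeing the data). The shares in introns, 65.9% against 62.6%, and of first introns among introns, 68.1% against 63.3%, did not pass (Fisher's exact test, adjusted p = 0.0816 and 0.0548). Against IDR peaks away from promoters no location passed. There introns held 65.9% against 68.9% (-2.96 percentage points, adjusted p = 0.162 by Fisher's exact test) and first introns 68.1% against 72.5% of intronic summits (-4.42 points, adjusted p = 0.0816 by the same test).

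**Figure D3:**
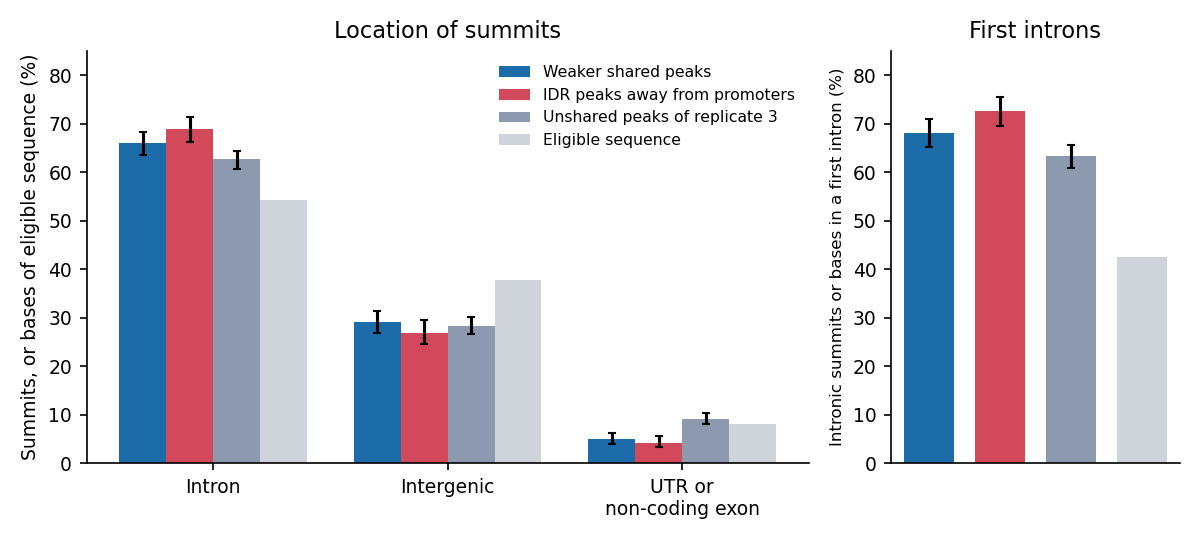
Left, share of summits in introns, intergenic sequence and UTRs or non-coding exons for weaker shared peaks, IDR peaks away from promoters and unshared peaks, beside the share of eligible bases; right, the share in a first intron, in the same order and colours. Error bars are 95% Wilson intervals; weaker shared peaks stood at 65.9% in introns, where eligible sequence had 54.2%.

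The regions lay on 2L, 2R, 3L, 3R, X and chromosome 4, and some lay close together. The median distance to the nearest start site of any gene, coding or non-coding, was 3245 bp (highest 49242 bp). It was 2365.5 bp at IDR peaks away from promoters and 2995 bp at unshared peaks. Distances given with a named gene run to the nearest protein-coding start site and can be longer. The median distance to an IDR summit was 11041 bp, against 11540 bp for unshared peaks, and 27.5% of the weaker shared peaks were within 5000 bp of one. Another weaker shared peak lay within 2000 bp of 313 of them, 21.2%, and within 5000 bp of 493, 33.4%. How these shares compare with random spacing was not tested. Per eligible Mb, 2L held 17.4 weaker shared peaks (95% exact binomial interval 15.5 to 19.6), 3L 17.2, X 17.2, 3R 14.5, 2R 12.6 (10.9 to 14.3) and chromosome 4, with 10 regions, 10.8 (5.19 to 19.9). These intervals treat summits as independent. Unshared peaks had 33.2 per Mb on 2L and 20.8 on X. Soft-masked repeats filled over 50% of the window at 8.12% of the weaker shared peaks, 10.2% of IDR peaks away from promoters and 9.48% of unshared peaks, and 8 of the 1478 summits lay in an annotated transposable element.

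The sequence at the summits was richer in A and T than that around it. The summit windows had a median GC content of 34.7% (quartiles 28.7 and 41.6), and windows 1000 bp away on both sides had 40.6% (33.7 and 47.5). The windows of IDR peaks away from promoters had 31.7% and those of unshared peaks 37.6%. In steps of 50 bp, mean GC at weaker shared peaks was 35.1% and 35.6% beside the summit and 43.7% in the step centred 275 bp to its lower side, above the levels of 40.1% to 41.2% found beyond 600 bp. At IDR peaks away from promoters it was 32.4% and 32.5% beside the summit and reached 44.5%. At unshared peaks it was 37.9% and 37.7% beside the summit, with shoulders no higher than 41.6%. Across the 1478 regions, GC had a Spearman correlation of -0.14 with signal value in replicate 3 and of -0.05 with that in replicate 1, a weak relation given as a description.

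**Figure D4:**
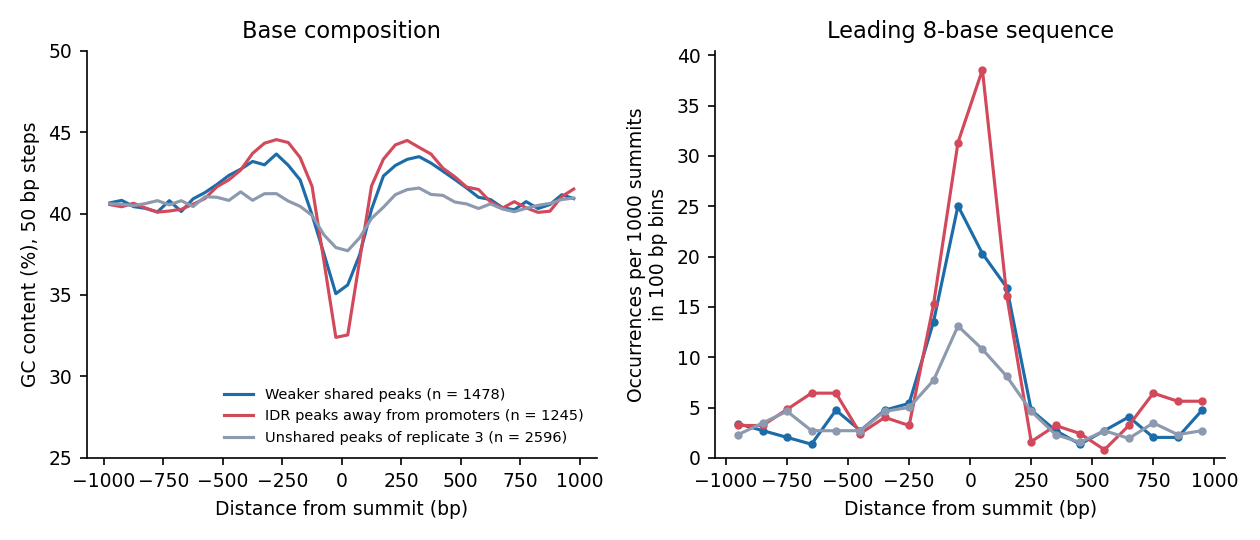
Left, mean GC content (%) in 50 bp steps around the summits of weaker shared peaks, IDR peaks away from promoters and unshared peaks; right, occurrences of the leading 8-base sequence per 1000 summits in 100 bp bins. Weaker shared peaks dipped to 35.1% GC, between the other sets, and their occurrences reached 25.03 per 1000 summits in the bin just below the summit. The 8-base sequence was picked from the windows at these summits.

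E-boxes were not more frequent at the summits than beside them. At least 1 CANNTG was in 37.6% of weaker shared peak windows, against 40.1% of windows 1000 bp to the higher coordinate, 42.4% of those 1000 bp to the lower coordinate, 35.2% of IDR peaks away from promoters, 39.9% of unshared peaks and 39.0% of all 30000 windows of replicate 3. Both strands were searched, and the classes and the achaete-scute-type and atonal-type E-boxes are all part of the any-E-box count. In all, 30 motifs were tested, the 10 E-box classes, any E-box and 19 others. Of these, 0 (0%) were more frequent and 0 (0%) less frequent than in the flank at the higher coordinate at an adjusted p under 0.05 (exact McNemar test, Benjamini-Hochberg). At an unadjusted p under 0.05 in that test there were 2. One was the achaete-scute-type E-box (GCAGGTG or GCAGCTG, in 28 windows and 46 flanks, and in 2.91% of all windows of replicate 3). The other was a run of 7 A (AAAAAAA, in 209 windows and 170 flanks, and in 11.8% of all). Windows are not replicates of the experiment, so such p-values cover the spread between windows only.

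The most frequent class, CAAATG, was in 11.3% of windows at weaker shared peaks and 11.9% of flanks (10.5% of all windows of replicate 3). CAAGTG was in 7.37% and 6.77% (6.41% of all), CAACTG in 5.68% and 6.90% (5.73%), and CAATTG in 4.87% and 5.21% (4.35%). CACATG and CATATG were each in 3.52% of windows, with 3.79% and 3.04% of flanks (4.79% and 3.42% of all). CAGATG was in 3.11% and 3.99% (4.01%), CAGCTG in 2.64% and 3.86% (4.15%), and CACCTG in 2.57% and 3.04% (3.49%). The rarest, CACGTG, was in 9 windows and 20 flanks (1.07% of all windows of replicate 3). None of these differences passed. The atonal-type E-box, ACAGGTG or ACATGTG, was in 30 windows and 27 flanks (2.17% of all). Against the flank at the lower coordinate, CAGCTG (39 windows and 70 flanks, exact McNemar test, adjusted p = 0.0439) and the achaete-scute-type E-box (28 and 58, adjusted p = 0.0421 by the same test) were less frequent at the summits. Both are rich in G and C, and summit windows had less G and C than flanks. The part of base composition in these differences was not tested.

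Nor did any of the 30 motifs separate the weaker shared peaks from the other sets. By Fisher's exact test with Benjamini-Hochberg adjustment, 0 (0%) differed from IDR peaks away from promoters, with 2 at an unadjusted p under 0.05, and 0 (0%) from unshared peaks, with 4. The 2 were the Runt motif (ACCGCA or ACCACA), in 6.50% of weaker shared peaks and 4.02% of IDR peaks (7.30% of all windows of replicate 3), and Grainyhead (AACCGGTT, AACAGGTT or AACCTGTT), in 9 windows of weaker shared peaks and 1 of IDR peaks (0.413% of all). The 4 were CACATG, in 3.52% of weaker shared peaks and 5.35% of unshared peaks, the homeodomain core TAATTA, in 10.4% and 7.90% (7.71% of all), the achaete-scute-type E-box, in 1.89% and 2.93%, and the CA repeat CACACAC, in 3.18% and 4.47% (3.54% of all). With the rule turned round, so that replicate 1 gave the peaks, 5 motifs differed from unshared peaks.

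Among all sequences of 6 bases, each counted together with its reverse complement, 63 were more frequent at the summits of weaker shared peaks than in the flank, 3.03% of those tested, and 54 were less frequent, 2.6% (adjusted p under 0.01 by the exact McNemar test with Benjamini-Hochberg, and a ratio of at least 1.5 in either direction). Of the 63, 15 were made of A and T alone, as are 36 of all, and 9 held 3 or more G or C. All 54 less frequent ones held 3 or more G or C, as do 1360 of all. Base composition therefore moved with these counts, and its part in them was not tested. The part of flanks in coding exons or near start sites, where no summit could lie, was not tested either. Against the flank at the lower coordinate, 44 of the 63 and 51 of the 54 also had a ratio of 1.5 or more in the same direction. With the 5000 highest of each replicate the counts were 3 and 0, with replicate 3 alone 30 and 134, with replicate 1 alone 9 and 11, and with the flank at 500 bp 102 and 130.

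Of the 10 sequences with the highest ratios, 4 held CACTG on one strand or the other. AGTGTA was in 148 windows and 61 flanks (ratio 2.43, exact McNemar test, adjusted p = 7.76e-08), and 5.34% of all windows of replicate 3 held it. The 4 were ACACTG in 120 windows and 52 flanks (5.67% of all), ACAGTG in 127 and 57 (5.34%), CAGTGC in 107 and 49 (5.77%) and CACTGA in 121 and 57 (5.50%). The highest ratio of all, 2.69, was that of CAGTAC, in 43 windows and 16 flanks, but 33 flanks at the lower coordinate held it (2.08% of all windows). The others among the 10 highest ratios were ATACCC (88 windows and 39 flanks, 3.95% of all), AGGGTA (63 and 28, 2.77%), CTCATA (76 and 34, 3.31%) and GTATGA (66 and 31, 3.13%). The lowest ratios were those of CGAGGA (10 windows and 51 flanks, 2.71% of all), ATCCCG (5 and 25, 1.59%), GCAGGA (15 and 66, 3.65%), GACCGA (10 and 39, 1.82%) and GCGGCC (14 and 50, 2.35%).

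A comparison of all 6-base sequences with the other peak sets was added after seeing the data. At an adjusted p under 0.05 (Fisher's exact test, Benjamini-Hochberg), 12 differed between weaker shared peaks and IDR peaks away from promoters, 0.577% of those tested, with 5 higher and 7 lower at weaker shared peaks. The 5 higher ones held 4 or more G or C each and the 7 lower ones at most 2. CGCTGC, one of the 5, was in 4.80% of weaker shared peaks and 1.85% of IDR peaks (adjusted p = 0.0102 by Fisher's exact test). It was also in 4.77% of all windows of replicate 3 and 6.09% of flanks at the higher coordinate. Its share at weaker shared peaks was thus near that of all windows, and the IDR peaks were the low set. AAGCAT, one of the 7, was in 4.67% and 9.72% (adjusted p = 6.82e-04 by Fisher's exact test), and in 5.74% of all windows. Against unshared peaks 10 differed, 0.481%, with 5 on each side. AGTGTA was in 10.01% of weaker shared peaks and 6.43% of unshared peaks, and CGAGGA in 0.677% and 2.43% (adjusted p = 0.0232 and 0.0221 by Fisher's exact test). TTAAAA passed in both comparisons, in 26.1% of weaker shared peaks, 33.8% of IDR peaks and 20.5% of unshared peaks (21.3% of all windows). These counts moved with the settings. The count against IDR peaks was 0 with the 5000 highest of each replicate, 120 with the 15000 highest, 21 with the rule turned round, 258 with replicate 3 alone and 667 with replicate 1 alone. The count against unshared peaks was 0 with the 5000 highest, 32 with the 15000 highest, 28 with overlap of at least 50%, 34 with windows reaching 100 bp to either side and 311 with the rule turned round.

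CACTGAGA stood highest among the 293 sequences of 8 bases found in 30 or more of the weaker shared peak windows, ordered by the ratio of windows to the mean of both flanks. By difference others stood higher, such as AATATAAA, in 74 windows and 25.5 flanks on average (2.78% of all windows of replicate 3). It was picked from these windows after seeing the data, so its values are a description with no test. It was in 32 windows of weaker shared peaks, 2.17%, and in 3 flanks on each side, and in 24 windows of IDR peaks away from promoters, 1.93%, 34 of unshared peaks, 1.31%, and 0.763% of all windows of replicate 3. Next came CACAGTGG, in 36 windows and 9 and 5 flanks at the higher and lower coordinate (0.823% of all), and CACTGTGC, in 36 windows and 7 flanks on each side (0.803%). The longer TCTCAGTGCA was in 14 windows and CACTGAGAGA in 13, with 0 in the flanks of both (0.26% and 0.287% of all).

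Occurrences of CACTGAGA were densest round the summits of weaker shared peaks, as its choice by the ratio of these windows to flanks asks. For the weaker shared peaks, the central bins and the share within 50 bp of summits therefore restate that choice and are a description only. In bins of 100 bp there were 25.03 and 20.3 per 1000 summits on either side of the summit, 13.5 and 16.9 in the next bins out, and 1.35 to 5.41 in each bin beyond 200 bp. IDR peaks away from promoters had 31.3 and 38.6 in the central bins and unshared peaks 13.1 and 10.8. Of 3058 occurrences in eligible sequence, 35 (1.14%) were within 50 bp of the summit of a weaker shared peak, a span that covers 0.157% of that sequence, and 168 (5.49%) were within 50 bp of any summit of replicate 3, a span that covers 1.86%. For replicate 1 the values were 5.56% and 2.01%.

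The 32 regions that held CACTGAGA had a median signal value of 25.2 in replicate 3 and 17.2 in replicate 1, against 24.1 and 15.8 in the 1446 that did not. Their medians of GC were 38.1% and 34.7%. Of the 32, 16 were intronic, 18 overlapped the pooled list, 1 had a window over 50% soft-masked and 0 lay in an annotated transposable element. The highest was in an intron of cv-c, a GTPase-activating protein gene, with 44.9 in replicate 3 and 21.9 in replicate 1. The next was in an intron of gukh (43.9 and 22.0). An intergenic one lay 10738 bp from the start site of Dr, a homeobox gene of neuron and muscle identity (39.7 and 13.5), and one in an intron of S, which encodes a cargo receptor for EGF receptor ligands (34.3 and 17.5). Another, 2050 bp from the start site of sens, the zinc finger gene that marks sense organ precursors, had 30.3 in replicate 3 and 23.7 in replicate 1.

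When each region was assigned to the protein-coding gene whose start site was closest, 1021 of 13968 genes, 7.31%, had at least 1 weaker shared peak. Of these 727 had 1, and 294 had more, which together took 751 of the regions. Genes with a weaker shared peak had a median territory, the span of genome nearer to their start sites than to any other gene's, of 17744.5 bp, against 3887 bp for genes without one. The share of genes with a region was 0.215% in the decile of smallest territories and 30.4% in that of the largest, so gene counts are read beside territory. The rule on start sites leaves little room in the smallest territories, whose decile has a median of 890.5 bp. Of the 1021 genes, 318 also had an IDR peak away from promoters, which is 31.1% of them and 36.3% of the 877 genes with such an IDR peak. With replicate 3 alone 2161 genes had a peak, and with replicate 1 alone 2593.

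The most regions fell to kirre, an adhesion gene of myoblast fusion, with 9, the best of which had 40.7 in replicate 3 and 12.1 in replicate 1. Eip75B, an ecdysone-induced nuclear receptor gene, had 7, the best with 26.4 in replicate 3 and 12.4 in replicate 1. The genes cv-c, fz2, a Wnt receptor gene, raskol and RapGAP1, both of GTPase-activating proteins, had 6 each. Among those with 5 were hth, a homeodomain cofactor gene of Hox proteins, the translation initiation factor gene eIF5B, CG43658 and the bZIP gene Pdp1. Territories of these 10 genes ran from 18377 bp at eIF5B to 133877 bp at hth, all above the median for genes with a region.

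Regulators of sense organ identity and EGF receptor signalling, 2 of 18 gene lists, each had a weaker shared peak at 9 of 18 matched genes, 50% (9 of 19 and 10 of 20 once older names were matched through RefSeq synonyms). The share over all genes was 7.31%, and over genes in the same deciles of territory it was 17.9% and 18.3%. The lists overlap, were chosen with earlier results of these data known, and were described without a test. In the sense organ list the genes included chn, pros, D, SoxN, sens, sqz, tx and ct. Behind chn came pros, which encodes the homeodomain protein Prospero, with 43.2 in replicate 3 and 19.4 in replicate 1 at an intronic region, and the Sox gene D, with 40.01 and 20.4 at an intergenic one. In the EGF receptor list they included the receptor gene Egfr, the ligand genes spi and vn, the ligand-processing genes ru and S, the inhibitor gene sty, and pnt and aop, which encode the ETS activator and repressor of the pathway. The best region at pnt had 41.7 in replicate 3 and 13.1 in replicate 1, and that at S 34.3 and 17.5. That assigned to sty, with 35.5 and 19.0, lay 13724 bp from its start site, within the span of eIF5B. IDR peaks away from promoters were at 5 of the 18 sense organ genes and 7 of the 18 EGF receptor genes. Over all 13968 genes, 877 had such an IDR peak.

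The highest share was that of Hox genes and cofactors, at 6 of 10, 60%, against 24.9% of genes in the same deciles of territory. The 10 genes hold large territories, with a median of 45193.2 bp, and 3 of them had an IDR peak away from promoters. Genes in the decile of largest territories have a median of 32920 bp, so the deciles do not fully match the size of these territories. Together the 10 genes had 18 regions, 5 each at hth and Antp, 3 at Ubx, 2 each at abd-A and Dfd, and 1 at pb. The best region at hth had 40.3 in replicate 3 and 19.7 in replicate 1, and that at abd-A 32.5 and 12.1. Regulators of neuron type had a region at 10 of 26 genes, 38.5% (11 of 27 with synonyms), against 23.5%, with the best at Dr, at tup, a LIM homeodomain gene (34.5 in replicate 3 and 13.4 in replicate 1), and at bab1 (34.0 and 22.5).

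In the 4 lists described next the share was below that of their territory deciles, with small counts and no test. It was also below in the axon guidance, differentiated neuron, mesoderm and neuroblast lists given further on. In the list of the atonal family and proneural genes 1 of 17 had a region, 5.88%, against 10.2% of genes in the same deciles. This was dimm, a basic helix-loop-helix gene of peptide-secreting cells, with 24.99 in replicate 3 and 16.2 in replicate 1 at an intergenic region 605 bp from its start site. Of the chordotonal organ and cilium genes 0 of 25 had one, against 10.7%. Of Notch pathway genes 2 of 23 did, 8.70% against 9.14%, at E(spl)mbeta-HLH (22.6 in replicate 3 and 12.2 in replicate 1) and mam (18.8 and 12.4). Ribosomal protein genes, whose territories are small, had 0 of 20, against 4.31%. IDR peaks away from promoters, near which the rule drops peaks, were at 1, 2, 7 and 0 genes of these 4 lists, in the order given.

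Among genes of other tissues the counts were also small. Glial genes had 3 of 13, 23.1% against 10.4%, at pnt, at loco (33.2 in replicate 3 and 15.6 in replicate 1) and at nrv2 (28.2 and 14.8). Epidermis and cuticle genes had 4 of 15, 26.7% against 15.5%, best at tara (32.7 and 14.5), ttk and ovo. Tracheal genes had 4 of 14, 28.6% against 21.9%, best at knrl (42.4 and 20.2), salm and vvl. Endoderm, fat body and haemocyte genes had 3 of 13, 23.1% against 18.5%, at ush (37.5 and 15.4), fkh and Pvr. Early patterning genes had 8 of 34, 23.5% against 20.2% (10 of 36 with synonyms, which add hry and oc), best at tup, ptc (33.4 and 13.2) and en.

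Axon guidance and adhesion genes had a region at 7 of 28, 25% against 27.4% in the same deciles, best at Tl (30.1 in replicate 3 and 13.3 in replicate 1), Fas2 and Ten-a. Differentiated neuron genes had 5 of 25, 20% against 21.9%, best at Syx1A (29.9 and 13.5, 7597 bp from its start site), Dscam1 and fne. Mesoderm and muscle genes had 4 of 28, 14.3% against 19.8%, best at kirre, Mef2 (36.6 and 23.7) and how, and neuroblast genes 3 of 22, 13.6% against 20.2%, at mid (29.7 and 12.99), nub and opa. Odorant and gustatory receptor genes had 2 of 34, 5.88% against 5.55%, at Gr93d (33.3 and 14.7) and Or67d, the latter 64630 bp from its start site.

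**Figure D5:**
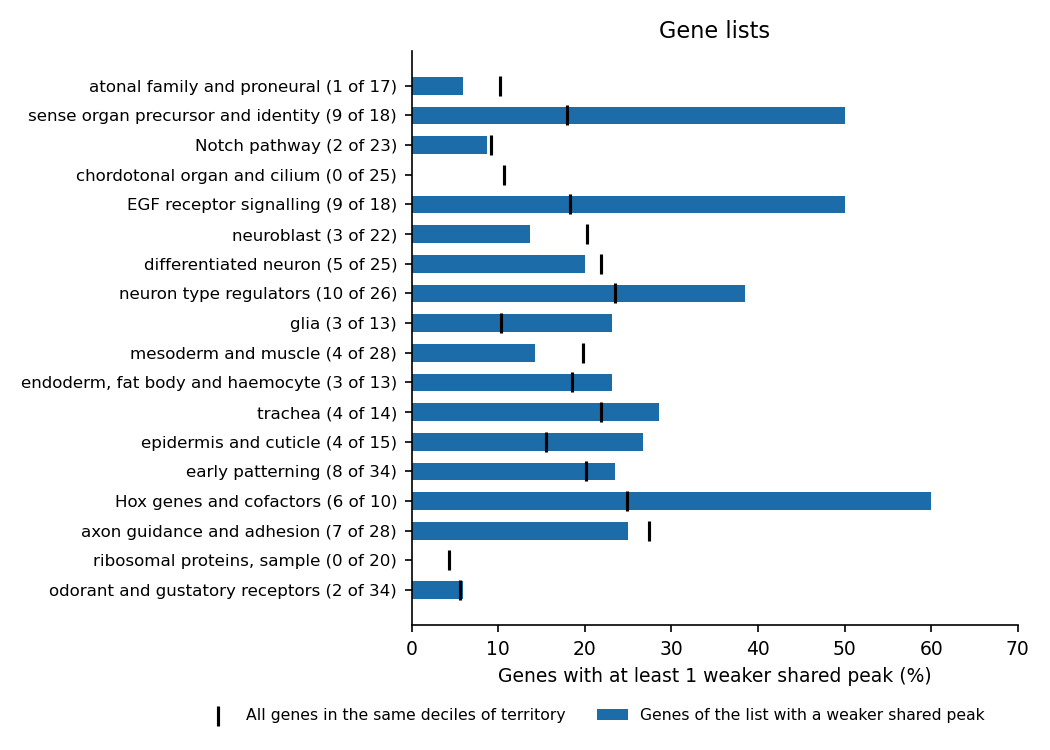
Share of matched genes in each of 18 lists with at least 1 weaker shared peak (bars, counts in brackets) and the share among all genes in the same deciles of territory (ticks). The lists of Hox genes (60%), sense organ identity (50%) and EGF receptor signalling (50%) reached farthest beyond their ticks. The Hox list has a median territory of 45193.2 bp, above the median of 32920 bp in the decile of largest territories.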

How the data were processed

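Per the labels, 2 libraries of one condition were sequenced. Per the text lists deposited with the libraries, the authors made a list of peaks and background for each replicate and for the pool, and a list of optimal IDR peaks, on dm6 and dm3; the dm3 lists were not used here. Column 7 of the deposited lists is a signal value on the scale of the authors' peak caller, comparable within a list only, and column 10 the summit offset in bp, another unit the authors deposited. The aligner is not given in the sources used here, nor is the peak caller. Depth per sample is unknown, and intervals cover counting of peaks only.

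The members and lists were chosen with earlier results of these data known. Start sites, exons and introns came from Ensembl release 115 (BDGP annotation 6.54) without transposable elements, and sequence from RefSeq. A summit took the first class that held it, from promoter through coding exon, other exon and intron to intergenic. Motifs were counted as present or absent in windows reaching 50 bp to either side of the summit and in equal windows 1000 bp away, on both strands; 1 IDR peak away from promoters lacked a full window. In the gene lists, 26 names matched no current symbol and were left out, some of them older names. An alternative added after seeing the data looked these up among RefSeq synonyms, which matched 16 names, 9 of them new to their list. Named regions were the 10 highest by signal value in replicate 3 and the 5 of best mean rank; named genes the 10 with the most regions and up to 3 per list; named 6-base sequences the 10 highest and 5 lowest ratios. The 8-base and 10-base sequences, the regions named and printed for them, the tests of location and the 6-base sequences set against other peaks were chosen after seeing values. The window tests were tested on simulated data. One gene is not reported here. Python 3.11.15, numpy 2.4.6, scipy 1.17.1, pandas 2.3.3 and matplotlib 3.10.9 were used. The alternatives changed list length, overlap, distances, replicate, window, flank and gene assignment.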

Additional observations from a re-analysis of the deposited data

How the results depend on the processing

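With the 5000 highest of each replicate there were 408 weaker shared peaks at 359 genes, with 72.3% in introns, a median GC of 33.7% and 3 6-base sequences more frequent than in flanks. With the 15000 highest there were 2536, of which 53.8% overlapped the pooled list, and 1 motif differed from IDR peaks away from promoters. When each replicate was left out in turn, and overlap therefore not asked, there were 4074 to 4619 peaks at 2161 to 2593 genes, with 60.7% to 63.8% in introns, 41.1% to 47.1% in the pooled list, a median GC of 36.6% to 38.6%, 1 to 1 motif more frequent than in flanks, 3 to 7 motifs that differed from IDR peaks away from promoters, and 9 to 30 6-base sequences more frequent than in flanks. With the rule turned round, 1 motif was more frequent than in flanks and 1, any E-box, less, 1 differed from IDR peaks and 5 from unshared peaks. With overlap of at least 50% of both peaks, 1 motif differed from unshared peaks. With windows reaching 100 bp to either side the median GC was 36.3%, and 1 motif was more and 1, the ETS motif, less frequent than in flanks. With the flank 500 bp away, 2 motifs were more frequent, the homeodomain core among them, and 2 less, the long GAGA motif and the CA repeat, and 102 6-base sequences more frequent. With the flank at the lower coordinate, 2 motifs were less frequent. The run of 7 A was among the more frequent motifs in each of these settings that had one. The causes were not tested. No paired analysis was possible because there is 1 group. Read depth is unknown, so peaks carry no counting error here, and with 2 replicates and no control library analysed here, background in both libraries cannot be told apart from binding.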
